A study of Rattus norvegicus with 6 samples.

Results

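Most of the 80 genes described here encode subunits of the mitochondrial respiratory chain or of the ATP synthase. All were chosen by symbol from the 14506 genes that the array annotation names singly. A gene belonged if its symbol starts with Ndufa, Ndufb, Ndufc, Ndufs, Ndufv, Uqcr, Atp5 or Cox4 to Cox8, or is Sdha, Sdhb, Sdhc, Sdhd or Cyc1. The rule reads symbols only, but it was set with earlier results of these data known. Of these, 33 were assigned to complex I, 4 to complex II, 7 to complex III, 17 to complex IV and 16 to complex V, the ATP synthase. The other 3 are Ndufaf genes, whose products help to build complex I and are not part of it. By symbol, complex V also counts the inhibitor gene Atp5if1, and complex IV the supercomplex factor gene Cox7a2l. The 80 include 2 symbols of pseudogenes, Ndufs6-ps1 and Cox6c-ps1. Cyc1 was not analysed here, nor was 1 row that the annotation shares between Ndufa10 and Ndufa10l1.

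Long bones of Sprague Dawley rats, 2 to 5 days old, supplied the cells, which had attached to plate wells coated with mouse prothrombin (PT) or with osteopontin (OPN) from bovine milk. Per the labels' protocols, each coating holds a different kind of multinucleated cell that stains for tartrate-resistant acid phosphatase, the enzyme by which osteoclasts are recognised, and the series title speaks of macrophage and osteoclast phenotypes. Affymetrix Rat Gene 1.0 ST arrays measured the RNA of 3 PT preparations (replicates 1, 2 and 4) and 3 OPN preparations (replicates 2, 3 and 4), with no untreated or uncoated group. The labels do not say that these came from separate animals, so p-values measure the spread between these samples only, which may be technical. All 6 share strain, age range, bone source, plate type and labelling of 300 ng of RNA. The median signal of an array ranged from 208 to 231 units. Markers of several cell types differed between the coatings. Of 8 measured osteoclast markers 7 were called higher on OPN by limma, and of 10 macrophage markers 8 were called lower there. All 10 osteoblast markers and all 8 stromal fibroblast markers were called higher on OPN as well. A call is an adjusted p below 0.05 over all rows, and 7.62% of named genes were called higher and 1.12% lower. In such mixed RNA, fewer cells of a type and less RNA per cell cannot be told apart.

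Complexes I to IV pass electrons from NADH and succinate to oxygen, and complexes I, III and IV pump protons across the inner mitochondrial membrane as they do so. The ATP synthase lets the protons flow back and makes ATP. Nuclear genes encode all of complex II and most subunits of the others, and mitochondrial DNA encodes a few central ones, which were not analysed here. Osteoclasts are known as cells rich in mitochondria, since secreting acid through the V-ATPase consumes ATP.

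The coatings differed little in these genes. Differences are given as OPN minus PT on the scale log2(signal + 16), and a gene is called where limma's adjusted p over all 29215 rows is below 0.05. Of the 80 genes 1 rose on OPN and 0 fell, and before adjustment 18 had p below 0.05 (22.5%), all of them higher on OPN. Over all rows 17.7% had an unadjusted p below 0.05, 12.8% being higher on OPN. Over named genes 22.4% did, 17% being higher on OPN. The members' 22.5% is thus about the share of named genes in both directions and above their share higher on OPN. Of all rows 5.05% were called higher and 0.77% lower, and of named genes 7.62% and 1.12%. The share of members called higher, 1.25%, lies below both. The median difference was 0.11, beside 0.028 over all rows and 0.039 over named genes, and the members spanned -0.15 to 0.40. A difference above 0 was seen for 66 members (82.5%), for 58.5% of all rows and for 61.9% of named genes. In 28 members all OPN arrays lay above all PT arrays (35% of members), beside 16.3% of all rows and 21.6% of named genes. In 0 members they lay below, beside 7.4% of all rows and 8.77% of named genes. The members are brighter than either background, and no share here or below was matched for signal. Their median mean signal was 727 units, beside 222 for all rows and 245 for named genes. The 75 genes left without assembly factors and pseudogenes, Atp5if1 and Cox7a2l among them, had a median of 0.12. The count of small positive values depends on how the arrays are scaled. With the array medians made equal, 32 members lay below 0 in place of 14, and the median became 0.042, while that of all rows became -0.036. The calls over all rows then split into 1193 higher and 551 lower, and with quantile normalisation into 1360 and 745, in place of 1475 and 225.

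These values also set limits. The 95% interval of the difference, not adjusted for the number of genes, lay between -0.5 and 0.5 for 75 of the 80 genes, that is within 1.41-fold either way. The highest upper bound of any member was 0.61, or 1.53-fold higher on OPN, and the lowest lower bound -0.35, or 1.27-fold lower. These limits hold for the arrays as scaled in the deposited table and do not cover the shift between scalings. Atp5if1, the gene with the lowest bound, differed by -0.15 (SE 0.088), and by -0.21 (SE 0.10) with equal array medians. On the same arrays the osteoclast protease gene Ctsk differed by 4.35 and Acp5, the gene of the tartrate-resistant phosphatase, by 2.46.

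**Figure D1:**
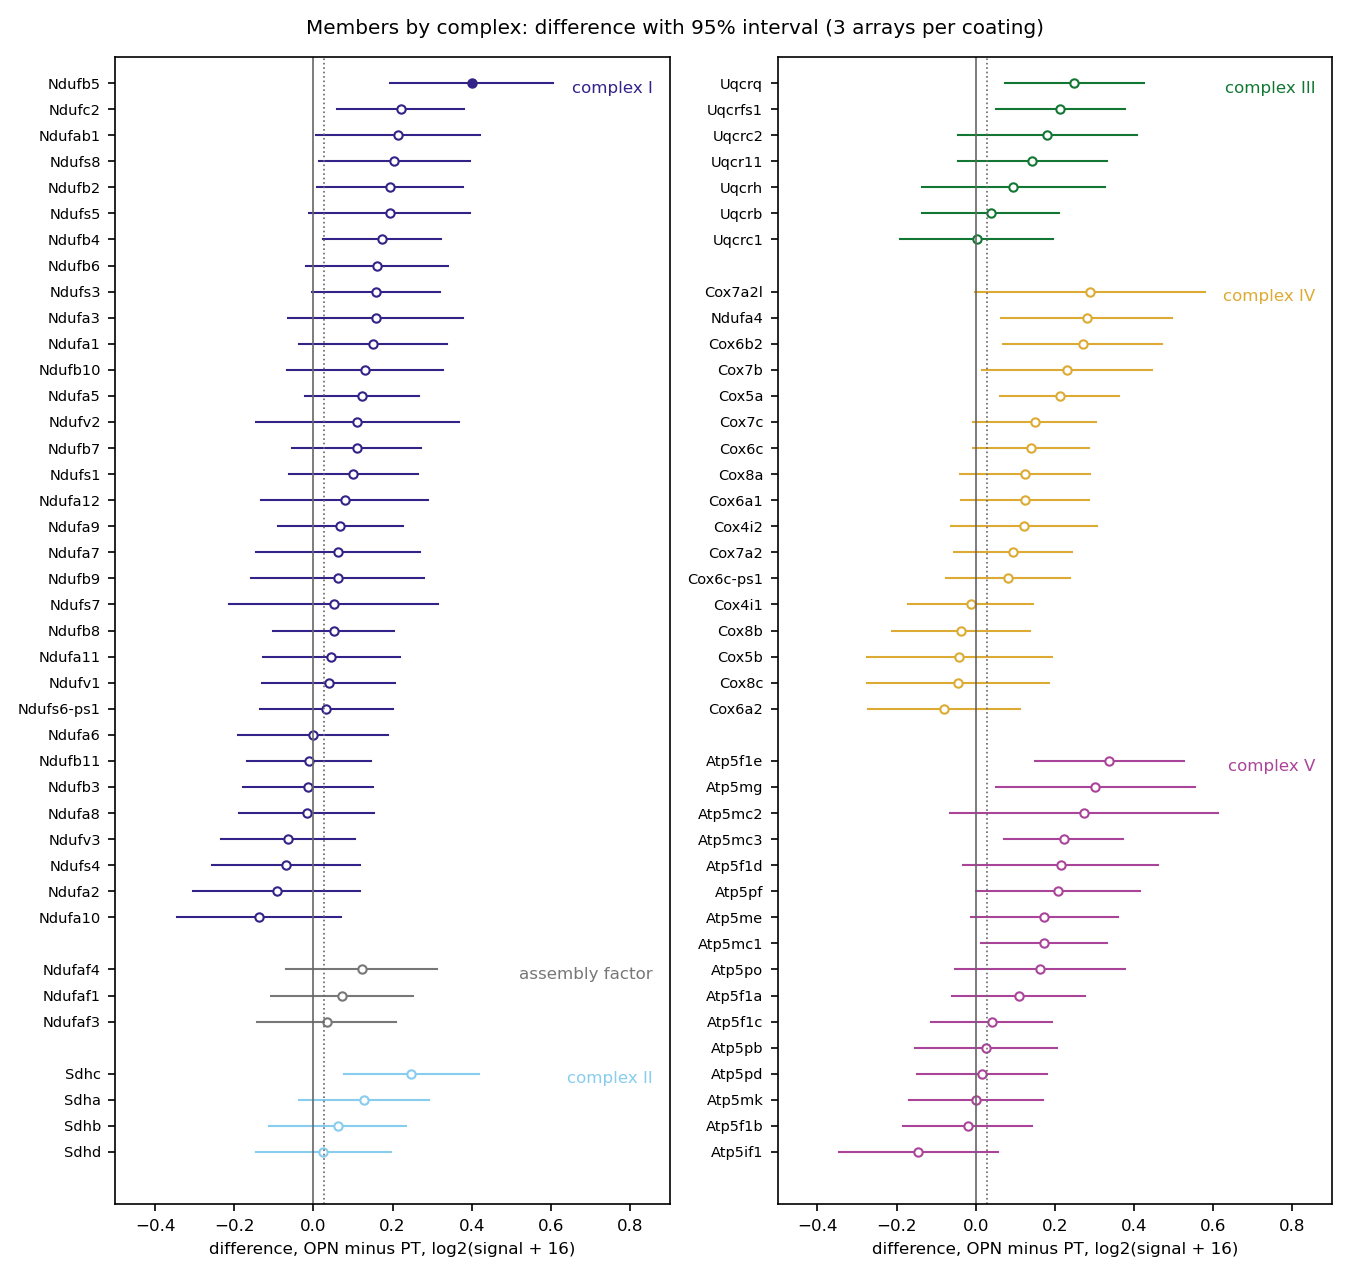
Difference between coatings, OPN minus PT on the log2(signal + 16) scale (horizontal axis), for all 80 members grouped by complex, with the 95% interval as a line. The filled point is the 1 called gene, Ndufb5 at 0.40, the solid vertical line is 0 and the dotted line the median of all rows, 0.028. In all, 66 of the 80 points lie above 0.

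The 1 gene that rose, Ndufb5, encodes an accessory subunit of the membrane arm of complex I. Its signal was 949, 1091 and 1183 units on PT replicates 1, 2 and 4, and 1401, 1461 and 1389.5 on OPN replicates 2, 3 and 4. Every OPN array lay above every PT array, and the PT arrays spread more than the OPN arrays. The PT mean was 1074 ± 118 and the OPN mean 1417 ± 38.2 (SD, n = 3 for each mean), a 1.32-fold difference (0.40, SE 0.090, adjusted p = 0.0373 in limma). The call was lost when any array other than PT replicate 4 was left out. Its adjusted p was then 0.0741 without PT replicate 1, 0.0867 without PT replicate 2, and 0.112, 0.148 and 0.0945 without OPN replicates 2, 3 and 4. It was also lost with equal array medians (adjusted p = 0.0954) and with an offset of 1 (adjusted p = 0.0569), and kept with quantile normalisation (adjusted p = 0.0264).

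A feature that the choice of genes did not use is the sequence at their start sites. Many genes of the respiratory chain are known to carry sites for nuclear respiratory factor 1 (NRF1) and for ETS-type factors such as GABPA, and some for YY1 and the oestrogen-related receptors (ERR). RefSeq promoters of GRCr8, 250 bases before to 50 after the start, matched 70 of the 80 members by symbol and 11968 of the genes named on the array. The letters searched on both strands were GCGCANGCG for NRF1, CCGGAAG for ETS, AAGATGGCG for YY1 and CAAGGTCA for ERR. The NRF1 letters stood in 18 members (25.7%) and in 9.8% of the promoters of genes on the array, and the ETS letters in 21 members (30%) against 13%. The YY1 letters stood in 8 members (11.4% against 2.63%) and the ERR letters in 4 (5.71% against 1.01%). Either the NRF1 or the ETS letters were found in 36 members, or 51.4%, beside 20.6% for genes on the array. Members with and without the NRF1 letters had median differences of 0.13 and 0.10, and for the ETS letters the medians were 0.10 with and 0.13 without. The 8 members with the YY1 letters had a median of 0.027 and the others 0.13, and for the ERR letters the medians were 0.16 with and 0.11 without. None of these contrasts was tested. These are matches of letters, not bound sites, and overlapping matches of different motifs were not separated.

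The promoters of Ndufb5, the called gene, and of Atp5mg and Ndufa6 are shown with the matched letters in capitals, written 5′ to 3′ along the gene's strand. Of the 3 members that carry both the NRF1 and the ETS letters, Atp5mg and Ndufa6 have the highest and the lowest difference, and they were picked for that contrast. Ndufb5 lies at chr2:117447355-117447654 on the plus strand, Atp5mg at chr8:54130358-54130657 on the minus strand and Ndufa6 at chr7:115750268-115750567 on the minus strand of GRCr8.
Ndufb5: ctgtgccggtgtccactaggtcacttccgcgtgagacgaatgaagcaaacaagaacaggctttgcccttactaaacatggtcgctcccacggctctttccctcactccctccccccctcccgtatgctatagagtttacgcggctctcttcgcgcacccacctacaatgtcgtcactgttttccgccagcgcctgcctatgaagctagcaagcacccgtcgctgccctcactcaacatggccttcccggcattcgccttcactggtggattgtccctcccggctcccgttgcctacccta
Atp5mg: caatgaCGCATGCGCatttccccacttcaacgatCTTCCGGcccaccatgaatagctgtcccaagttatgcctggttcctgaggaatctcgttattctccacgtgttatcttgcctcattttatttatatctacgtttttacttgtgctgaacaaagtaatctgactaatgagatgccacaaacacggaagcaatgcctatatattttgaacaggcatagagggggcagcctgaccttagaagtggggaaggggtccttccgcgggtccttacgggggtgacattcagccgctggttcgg
Ndufa6: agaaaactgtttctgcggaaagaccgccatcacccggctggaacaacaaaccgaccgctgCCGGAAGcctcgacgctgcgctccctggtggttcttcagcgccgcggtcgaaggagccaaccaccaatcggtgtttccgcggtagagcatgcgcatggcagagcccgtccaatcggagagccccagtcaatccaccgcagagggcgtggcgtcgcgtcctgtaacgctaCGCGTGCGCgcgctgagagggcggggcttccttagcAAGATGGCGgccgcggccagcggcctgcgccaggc
None of the 4 motifs is spelled out in the Ndufb5 window. The Atp5mg window holds 1 NRF1 and 1 ETS match, and the Ndufa6 window holds 1 of each and 1 YY1 match. Atp5mg had a difference of 0.30 (SE 0.11) and Ndufa6 one of 9.57e-05 (SE 0.083), and neither was called.

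Complex I takes electrons from NADH through a peripheral arm of flavin and iron-sulphur subunits and pumps protons in a membrane arm. Of its 33 members, Ndufb5 rose and the other 32 were not called, with a median of 0.079 and 7 members below 0. Before adjustment 6 had p below 0.05, all higher on OPN, and in 8 (24.2%) all OPN arrays lay above all PT arrays. For these counts, and for those of the other complexes below, the shares of named genes were 17% and 21.6%. The 6 measured core subunits, which carry the flavin and the iron-sulphur clusters or help to hold them, had a median of 0.11 and spanned 0.039 to 0.20. Among them Ndufs8, an iron-sulphur subunit, had 430.2, 460.2 and 517 units on PT and 544, 559.7 and 521 on OPN, so that the coatings did not overlap, but it was not called (adjusted p = 0.245). Ndufv1, which binds NADH and the flavin, had 1407, 1489 and 1553 units on PT and 1449.7, 1599 and 1523 on OPN, and the groups overlapped (difference 0.039, 95% interval -0.13 to 0.21). Ndufs1, the largest iron-sulphur subunit, differed by 0.10 with overlapping arrays.

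The 26 accessory subunits of complex I spread more widely around a median of 0.073. After Ndufb5 the highest was Ndufc2, a membrane arm subunit, with 1309, 1281 and 1384 units on PT and 1480.3, 1558 and 1599 on OPN. Its OPN arrays were all above its PT arrays (difference 0.22, adjusted p = 0.129). Ndufab1, the mitochondrial acyl carrier protein that serves both complex I and fatty acid synthesis, differed by 0.21 with arrays that overlapped. The lowest were Ndufa10 and Ndufa2. Ndufa10, an accessory subunit that resembles nucleoside kinases, had 376, 377 and 384 units on PT and 332, 391 and 310.1 on OPN. OPN replicate 3 was the highest of its 6 arrays and OPN replicate 4 the lowest, and the difference of -0.14 was not called (adjusted p = 0.517). Ndufa2, of the peripheral arm, differed by -0.093 (adjusted p = 0.698). Ndufv3 has 2 rows, which differ in sign at -0.064 and 0.069, and neither was called. With equal array medians 16 of the 33 genes lay below 0, and the median was 0.0100. The assembly factors Ndufaf4 (0.12), Ndufaf1 (0.072) and Ndufaf3 (0.034) were not called, and the last 2 turned below 0 with quantile normalisation.

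Complex II oxidises succinate and is also an enzyme of the tricarboxylic acid cycle. All 4 subunits were measured and lay above 0, and none was called by limma (1 had an unadjusted p below 0.05). Sdhc, a membrane anchor that helps to bind ubiquinone, had 847, 913 and 861 units on PT and 978, 1106 and 1039 on OPN. The coatings did not overlap, and the difference was 0.25 (SE 0.075, adjusted p = 0.112). Sdha, the flavoprotein that binds succinate, had 729, 766 and 812 units on PT and 826, 875 and 822 on OPN, also without overlap (0.13, adjusted p = 0.427). The iron-sulphur subunit Sdhb (0.061, 95% interval -0.11 to 0.23) and the other anchor Sdhd (0.025, 95% interval -0.14 to 0.19) overlapped between coatings. With equal array medians both of the latter turned below 0, to -0.0072 and -0.044.

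Complex III passes electrons from ubiquinol to cytochrome c. Its 7 members had a median of 0.14, all lay above 0 and none was called by limma (2 had an unadjusted p below 0.05). Uqcrq, a small subunit beside cytochrome b, had 745, 801 and 836 units on PT and 929.8, 1005 and 905 on OPN. Uqcrfs1, the Rieske iron-sulphur protein that takes the electron from ubiquinol, had 649.6, 593 and 645 units on PT and 709, 726 and 762 on OPN. In both genes the OPN arrays stood above the PT arrays, with differences of 0.25 (adjusted p = 0.119) and 0.21 (adjusted p = 0.150). At the other end stood Uqcrb (0.037), which has 3 rows with differences from 0.037 to 0.053, and the core protein gene Uqcrc1 (0.0028, 95% interval -0.19 to 0.20). Both turned below 0 with equal array medians. Uqcrc1 and the partner core protein gene Uqcrc2 (0.18) were not called, and whether they differ from each other was not tested. Without PT replicate 1 the median of the complex became 0.068.

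Complex IV, cytochrome c oxidase, reduces oxygen to water. Its catalytic subunits are mitochondrially encoded, and the nuclear ones measured here surround them and tune their activity. Ndufa4, first assigned to complex I and now known as a subunit of complex IV, was counted here. None of the 17 members was called by limma (4 had an unadjusted p below 0.05, all higher on OPN), with a median of 0.12. In 8 of them (47.1%) all OPN arrays lay above all PT arrays, beside 16.3% of all rows and 21.6% of named genes. Ndufa4 had 2313, 2682 and 2832 units on PT and 2949.9, 3362 and 3182 on OPN, so that the gap between coatings was smaller than the spread within either (difference 0.28, adjusted p = 0.153). Cox7a2l, a factor that helps complexes III and IV to join in supercomplexes, had the highest difference (0.29), but its PT arrays read 614, 809 and 878 and its OPN arrays 871, 945 and 976, so that PT replicate 4 overlapped with OPN replicate 2. Cox5a, which binds a thyroid hormone metabolite in the matrix, had 1094, 1096 and 1156 units on PT and 1281, 1326 and 1277 on OPN and was not called (0.21, adjusted p = 0.120). Its other row gave 0.25 (adjusted p = 0.0705), so that both rows point the same way. Cox5b, the zinc-binding subunit, differed by -0.042.

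Several subunits of complex IV exist as a common form and as forms restricted to certain tissues or to low oxygen, and such pairs can mark which cells a sample holds. Cox4i1, the common form of the subunit that responds to the ATP level, had 1853, 1734 and 1771 units on PT and 1762, 1850.4 and 1699 on OPN. These arrays overlapped throughout (-0.013, 95% interval -0.17 to 0.15). Its counterpart Cox4i2, known from lung and from cells at low oxygen, had 97.9, 92.8 and 89.8 units on PT and 114, 102 and 94.6 on OPN, a difference of 0.12 that was not called (adjusted p = 0.516). The heart and skeletal muscle forms Cox6a2 (-0.081) and Cox8b (-0.038) and the testis form Cox8c (-0.045) lay below 0 without a call. Their common counterparts Cox6a1 (0.12) and Cox8a (0.13) lay above 0, each with all OPN arrays above all PT arrays and without a call. Cox7a2, the common form of another such pair, differed by 0.094. Of 11 measured skeletal muscle markers 0 were called by limma and 1 had an unadjusted p below 0.05, with a median of -0.015. Cox6b2, known as a testis form, had 179, 153 and 153 units on PT and 185, 214 and 195 on OPN. Its arrays did not overlap, but the difference of 0.27 was not called (adjusted p = 0.139). No detection call was used for any of these probe sets, so it is not known which of them lay above background.

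**Figure D2:**
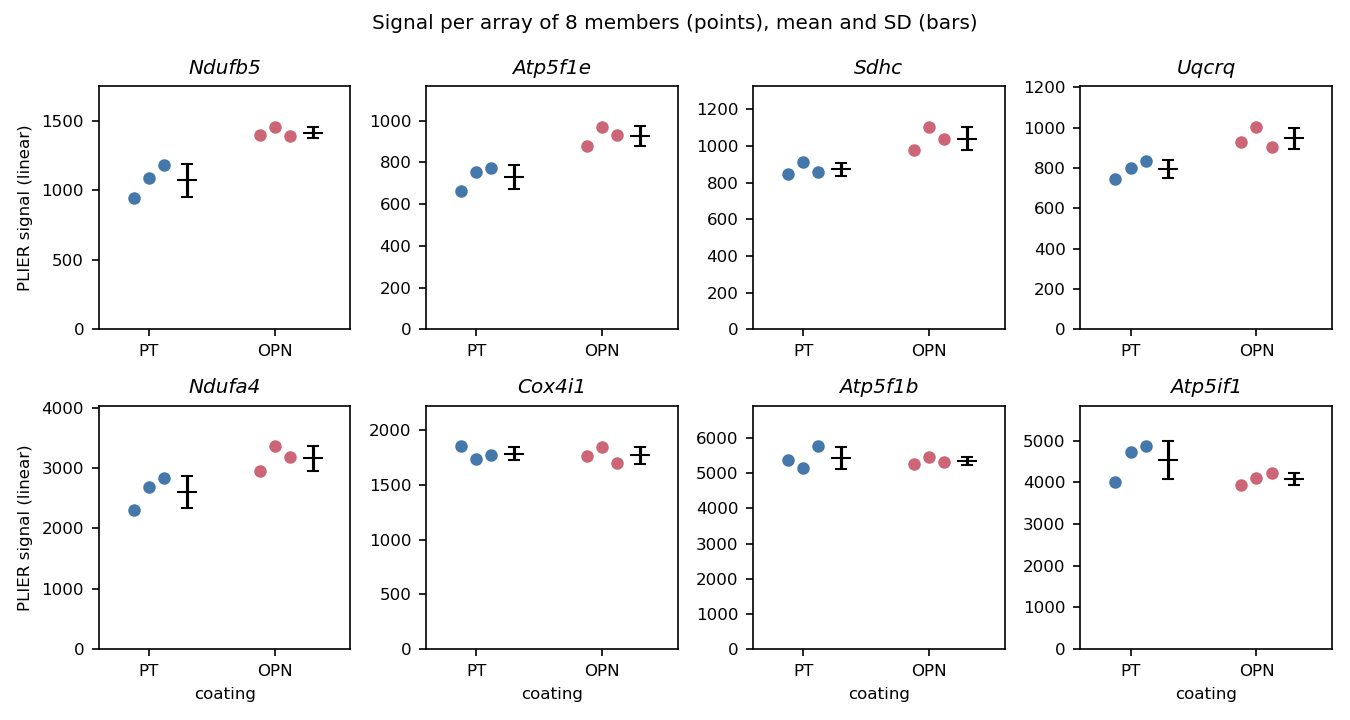
Linear PLIER signal (vertical axis, from 0) of 8 members on each of the 3 PT and 3 OPN arrays, with the mean and SD beside the points. Ndufb5, Atp5f1e, Sdhc, Uqcrq and Ndufa4 have all OPN arrays above all PT arrays, while Cox4i1, Atp5f1b and Atp5if1 overlap between coatings.

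The ATP synthase has a catalytic F1 head on a rotating stalk, a membrane ring of c subunits that the protons turn, and a peripheral stalk that holds the head still. None of its 16 members was called by limma (5 had an unadjusted p below 0.05, all higher on OPN), with a median of 0.17. In 7 of them (43.8%) all OPN arrays lay above all PT arrays. The member with the smallest p was Atp5f1e, the epsilon subunit at the foot of the central stalk, with 663, 753 and 773 units on PT and 876, 972 and 929 on OPN. Its arrays did not overlap, and the difference of 0.34 (SE 0.083, 1.26-fold) just missed the threshold at adjusted p = 0.0525. It was called with an offset of 64 (adjusted p = 0.0211), without the dimmest 25% of rows (adjusted p = 0.0179) and with an intensity trend and robust prior (adjusted p = 0.00737). It was farther from a call with equal array medians (0.27, adjusted p = 0.149), with an offset of 1 (adjusted p = 0.0728) and without any 1 array (adjusted p from 0.0660 to 0.199). The delta subunit gene Atp5f1d differed by 0.21. Atp5f1b, the catalytic beta subunit, had 5365, 5143 and 5761 units on PT and 5248, 5457 and 5325 on OPN, with the OPN arrays inside the range of the PT arrays (-0.020, 95% interval -0.18 to 0.14). Atp5f1a, the alpha subunit, differed by 0.11 and the gamma subunit gene Atp5f1c by 0.040.

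The 3 genes of the c-ring encode the same c subunit, and all lay above 0 without a call. Atp5mc3 had 1435, 1348 and 1370.2 units on PT and 1634, 1578 and 1639 on OPN, without overlap (0.22, adjusted p = 0.106). Atp5mc1 differed by 0.17 and Atp5mc2 by 0.27, and PT replicate 1 of Atp5mc2, at 909.8 units, stood far below the other 5 arrays, which read 1299.7 or more. The other row of Atp5mc2 gave 0.37 (adjusted p = 0.0737). Atp5mg, a small membrane subunit named g, had 206, 181 and 250.4 units on PT and 249, 270.2 and 271 on OPN, and PT replicate 4 lay above OPN replicate 2. Its difference of 0.30 was not called (adjusted p = 0.189), but it was without PT replicate 4 (0.42, adjusted p = 0.0409). In the peripheral stalk Atp5pf (0.21) and Atp5po (0.16) lay above Atp5pb (0.025) and Atp5pd (0.016), with no call for any of the 4 and no test between them.

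The lowest difference of all 80 members was that of Atp5if1, which encodes the inhibitor protein that binds F1 and stops it from breaking down ATP. It had 4017, 4719.9 and 4863 units on PT and 3934, 4107 and 4214 on OPN. PT replicates 2 and 4 stood above all OPN arrays, and PT replicate 1 lay among them, so that the SD on PT (453) exceeded that on OPN (141, n = 3 each). The difference of -0.15 (95% interval -0.35 to 0.056) was not called at adjusted p = 0.467. Erythroid cells are known for a high level of this inhibitor. On the same arrays, 2 of 8 erythroid markers were called lower by limma, Epb42 (-0.35, adjusted p = 0.0236) and Rhag (-0.30, adjusted p = 0.0486). All 8 lay below 0 (median -0.25), and 6 had an unadjusted p below 0.05. Of 14506 named genes 796 had such a p and lay lower on OPN. In 5 (62.5%, beside 8.77% of named genes) all OPN arrays lay below all PT arrays. The summed signal of the 8 lay between 60995 and 69215 units on PT and between 56194 and 60282 on OPN. PT replicate 1 had the lowest mean of the erythroid markers among the PT arrays, at 0.0060 after centring, against 0.15 and 0.20 on PT replicates 2 and 4. The part of these markers in the Atp5if1 value was not tested.

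Averaged over the 80 genes after centring each gene, the arrays had values of -0.11, -0.064 and 0.018 on PT replicates 1, 2 and 4, and 0.040, 0.079 and 0.040 on OPN replicates 2, 3 and 4. The coatings did not overlap, but the gap from PT replicate 4 to the nearest OPN array was smaller than the gap between PT replicates 1 and 4. PT replicate 1 was the lowest of the 6 arrays for 42 of the 80 genes and PT replicate 4 for 4. Over all rows the same mean was 0.0021 on PT replicate 1 and -0.0080 on PT replicate 4. The granulocyte markers were ordered the same way among the PT arrays, at -0.41, -0.23 and 0.17 on replicates 1, 2 and 4 and from 0.078 to 0.23 on OPN, with 0 of 8 called by limma and 4 at an unadjusted p below 0.05. Their summed signal ranged from 9178 to 14919 units on PT and from 13553 to 15298 on OPN. The osteoclast, erythroid and cycling-cell markers had the same order among the PT arrays. So did some of the other mitochondrial lists given below, among them those of the mitochondrial ribosome and of cristae organisation. In those of further assembly factors, electron carriers, regulators and membrane carriers, PT replicate 2 was the lowest PT array instead. The macrophage, osteoblast and stromal markers were ordered otherwise. Of the marker lists, that of granulocytes differed most between the PT arrays. So few arrays can share an order by chance, and the source of the order was not tested. Without PT replicate 1 the median difference of the members was 0.082 and that of the ATP synthase 0.091.

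Summed signals of the 8 osteoclast markers lay between 3502 and 3746 units on PT and between 21432 and 24164 on OPN, and those of the 10 macrophage markers between 13932 and 14705 on PT and between 9960 and 10674 on OPN. The 10 osteoblast markers summed to between 10997 and 11979 units on PT and to between 56466 and 63054 on OPN, and the 8 stromal markers to between 1132 and 1194 and to between 6904 and 7588. All 8 endothelial markers, all 4 of megakaryocytes and platelets and 7 of 12 of pericytes and smooth muscle were called higher on OPN. Of 7 adipocyte markers 0 were called by limma, with 1 at an unadjusted p below 0.05. Of 7 markers of cycling cells 0 were called, with 4 at an unadjusted p below 0.05, and their median was -0.18. All 7 lay below 0, and in 5 (71.4%, beside 8.77% of named genes) all OPN arrays lay below all PT arrays. Of 14506 named genes 796 had an unadjusted p below 0.05 and lay lower on OPN. The part of these cell types in the small differences of the respiratory genes was not tested.

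**Figure D3:**
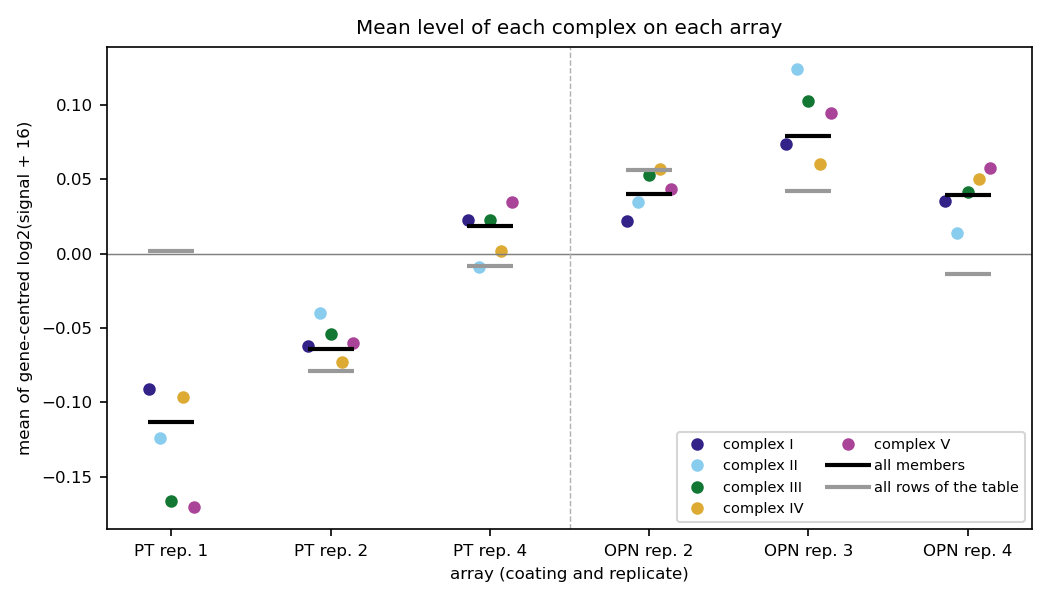
Mean of gene-centred log2(signal + 16) (vertical axis) on each of the 6 arrays (horizontal axis) for the genes of each complex (points), all 80 members (black bars) and all rows of the table (grey bars). For the members, PT replicate 1 is lowest at -0.11 and OPN replicate 3 highest at 0.079.

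Genes that work beside the respiratory chain were set out in 10 lists, and 11 of their 233 measured genes rose on OPN and 0 fell. That share, 4.72%, lies near the 5.05% of all rows and below the 7.62% of named genes called higher, so the called genes are given as single genes and not as a result about the lists. The carriers of the mitochondrial membranes held the highest of them, Slc25a4, which encodes the ADP/ATP exchanger known from muscle and other tissues. It had 947, 1067 and 1158 units on PT and 1743, 1690.5 and 1725 on OPN, a 1.62-fold difference (0.70, SE 0.085, adjusted p = 0.00150). The gap between coatings exceeded the spread within either, and the call held in each of the 14 alternative settings. The other exchanger gene measured, Slc25a5, had 2379, 2446 and 2598 units on PT and 2734, 2839 and 2753 on OPN and was not called (0.17, adjusted p = 0.251). The phosphate carrier Slc25a3, which supplies the ATP synthase, differed by 0.24 (adjusted p = 0.0729). Of 12 measured carriers 1 rose, with a median of 0.18. Before adjustment 8 had p below 0.05, all higher on OPN, beside 17% of named genes. In 8 (66.7%, beside 21.6% of named genes) all OPN arrays lay above all PT arrays. Whether Slc25a4 differs more than Slc25a5 was not tested.

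In the list of mitochondrial antioxidant and uncoupling genes 2 of 11 rose, with a median of 0.0092. Sod2, the superoxide dismutase of the matrix, had 809.6, 800.3 and 869 units on PT and 1295, 1325 and 1263 on OPN (0.64, adjusted p = 0.000721). Nnt, which uses the proton gradient to make NADPH, differed by 0.46 (adjusted p = 0.00715). In the tricarboxylic acid cycle 2 of 18 rose, the NADPH-forming isocitrate dehydrogenase gene Idh2 (0.43, adjusted p = 0.00975) and the succinate-CoA ligase gene Suclg2 (0.32, adjusted p = 0.0303). That list had the highest median, 0.19, and spanned -0.27 to 0.43, while citrate synthase, Cs, lay at -0.062. Before adjustment 11 of the 18 had p below 0.05, 10 of them higher on OPN. In 12 (66.7%) all OPN arrays lay above all PT arrays, and in 2 (11.1%) below. Outside this list and the carriers, the share of a list with all OPN arrays above ran from 12.5% to 31.2%. The lists were not tested as sets. The call of Idh2 was lost without OPN replicate 3 (adjusted p = 0.0526), and that of Suclg2 without any array but PT replicate 4 (adjusted p from 0.0781 to 0.106) and with either scaling of the arrays (adjusted p = 0.0930 with equal medians and 0.0626 with quantiles).

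The remaining lists held 1 or 2 called genes or none. Tomm20, a receptor for imported proteins, rose by 0.59 (adjusted p = 0.0113) among 25 import genes, a call lost without OPN replicate 2 (adjusted p = 0.0505). Of 16 genes of fatty acid oxidation Decr1 rose (0.39), and of 18 electron carrier genes Coq8a, needed for making ubiquinone, rose (0.39). Without OPN replicate 2 or 3, both were no longer called (adjusted p = 0.0689 and 0.0546 for Decr1, 0.0676 and 0.0778 for Coq8a), and Decr1 also was not without OPN replicate 4 (adjusted p = 0.0546). Of 68 genes of the mitochondrial ribosome Mrpl52 (0.39) and Mrpl54 (0.29) rose, with a median of 0.075. Mrpl52 was not called without PT replicate 2 or any 1 OPN replicate (adjusted p from 0.0542 to 0.0696), and Mrpl54 without any 1 of the 6 arrays (adjusted p from 0.0744 to 0.159) or with either scaling (0.104 and 0.0755). None of 32 further assembly factors (median 0.036) and none of 10 genes of cristae organisation (median 0.085) was called by limma, with 3 and 0 at an unadjusted p below 0.05.

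Among 23 regulators of mitochondrial gene expression 1 rose, the transcription factor gene Mef2a (0.50, adjusted p = 0.00312), which is known chiefly from muscle and is widely expressed. Ppargc1b, a coactivator known to support mitochondria in osteoclasts, had 211, 184 and 202 units on PT and 235, 218 and 233 on OPN. Its arrays did not overlap, and the difference of 0.18 was not called (adjusted p = 0.248). The related coactivator Ppargc1a (-0.090), the receptor gene Esrra (0.098), Nrf1 (-0.18), Gabpa (-0.023) and Tfam (0.075), the factor that transcribes and packs mitochondrial DNA, were not called either. The list as a whole had a median of 0.020.

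**Figure D4:**
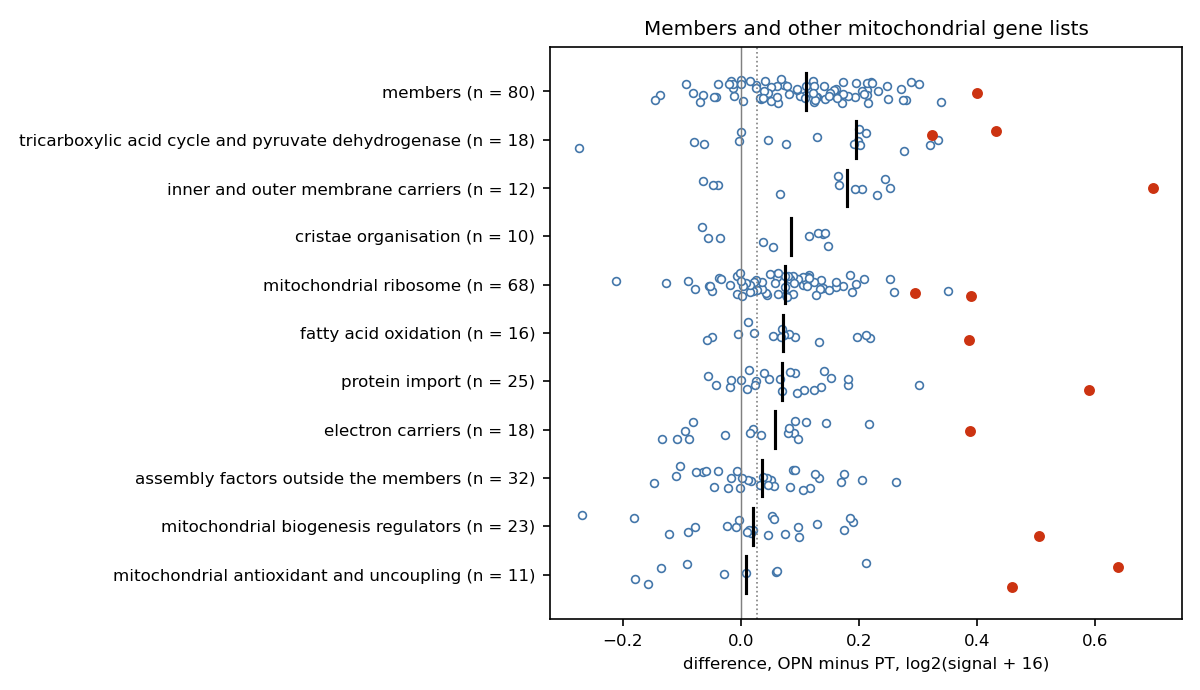
Difference between coatings, OPN minus PT on the log2(signal + 16) scale (horizontal axis), for each gene of the members and of 10 other mitochondrial lists. Filled points are called genes, black bars list medians and the dotted line the median of all rows. The called point farthest to the right is Slc25a4 at 0.70, and the 80 members lie between -0.15 and 0.40.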

How the data were processed

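The deposited table holds 1 intensity per probe set and array, which the authors made with Affymetrix Expression Console and PLIER, per the submitters' processing notes. For versions, background correction, scaling between arrays and the genome build, the entry is: not given in the sources used here. Values were read as linear from their range. Rows were named through the platform annotation: of 29215 rows, 15310 had 1 symbol, 323 several and 13582 none. The 80 members have 92 rows. Where a member had several rows (11 genes), the brightest by its mean signal stood for it.

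All rows entered 1 fit with a term for the coating (lmFit and eBayes of limma 3.58.1, R 4.3.3) on log2(intensity + 16), with Benjamini-Hochberg adjustment over all rows. The offset understates the change of dim rows. Tested on simulated arrays of all rows, the fit called 67.5% of 80 rows shifted by 0.5 on the log2 scale and all of those shifted by 1 or by 2. It also called 12 of the unshifted rows, and a member shifted by 0.5 could be missed. Far fewer rows were shifted than were called in the data, and the adjustment depends on that number. No shift below 0.5 was tried, while every member's difference was smaller than 0.5, so the power for such differences is not known. Members, complexes and lists were chosen with earlier results of these data known. Named are the called members, the 2 highest and 2 lowest per complex, all of complex II, the isoforms of complex IV with their counterparts, the assembly factors and up to 3 called genes per related list. Other members named for their role were added after their values were seen. The number of arrays limits the precision. Numbers 2 and 4 occur on both coatings without a statement that they pair samples, and the fit had no block. Alternatives were 2 other scalings, 2 other offsets, a filter on dim rows, the dimmest row per gene, a trend with robust prior, the block and leaving out each array.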

Additional observations from a re-analysis of the deposited data

How the results depend on the processing

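The count of 1 member called higher became 0 with equal array medians, with an offset of 1 and with the replicate block, 2 with an offset of 64 and without the dimmest 25% of rows, and 5 with an intensity trend and robust prior (Ndufb5 with Atp5f1e, Atp5mc3, Sdhc and Uqcrq). Leaving out 1 array gave 0 to 2. It was 1 with quantile normalisation and with the row of lowest mean per gene. The count of members called lower was 0 in every one of the 14 settings. The cause of these changes was not tested. Over all rows, the higher calls were 618 with the replicate block and 928 to 1357 without 1 array. The lower calls were 551 with equal medians, 745 with quantile normalisation, 382 with an offset of 64, 423 without the dimmest 25%, 516 with the trend, 48 with the block and 95 to 181 without 1 array. The deviations of same-numbered arrays correlated at -0.08 for number 2 and 0.07 for number 4, and the labels do not state a pairing. These values do not settle whether the numbers pair the samples. With the replicate block Ndufb5 was 0.29 (adjusted p = 0.344 in limma) and Atp5f1e 0.24 (adjusted p = 0.449).

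The members' median was 0.042 with equal medians, 0.052 with quantile normalisation and 0.058 with the replicate block. Minus the median of all rows it was 0.083 as reported, 0.078 with equal medians and 0.082 with quantile normalisation. Complex I had 0.0100 and 0.030 with these scalings in that order, and complex II 0.026 with equal medians and 0.024 with the block. Complex III had 0.041 with the block and 0.068 to 0.18 without 1 array. Complex IV had 0.056 with equal medians and 0.082 to 0.13 without 1 array. Complex V had 0.056 with the block and 0.091 to 0.21 without 1 array.

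The filter on dim rows kept 77 of the 80 members. Among the 30 members named by rule and the 14 settings, 379 values kept direction and side of the threshold, 8 lost a call (all Ndufb5), 6 gained one and 25 changed sign without a call. With equal medians Ndufaf3 was -0.034, Sdhb -0.0072, Sdhd -0.044, Uqcrb -0.032 and Uqcrc1 -0.066. With quantile normalisation Ndufaf1 was -0.00423, Ndufaf3 -0.043, Sdhd -0.026 and Uqcrc1 -0.052. With the replicate block Cox6a2 was 0.016, Cox8c 0.057, Ndufaf3 -0.020, Sdhb -0.014, Sdhd -0.035 and Uqcrc1 -0.11. Without 1 array the ranges that crossed 0 were -0.057 to 0.024 for Atp5f1b, -0.045 to 0.016 for Cox4i1, -0.071 to 0.023 for Cox8b, -0.13 to 0.0084 for Cox8c, -0.021 to 0.075 for Ndufaf3, -0.024 to 0.069 for Sdhd and -0.055 to 0.049 for Uqcrc1. Of the 11 called genes of related lists, 9 lost their call with the replicate block and 0 changed sign.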
